A study of Mus musculus with 10 samples.

Results

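The mouse Hox gene clusters were examined in chromatin accessibility profiles of differentiating G1E-ER4 erythroid cells (G1ER). All 39 protein-coding genes of GENCODE release M21 named Hoxa, Hoxb, Hoxc or Hoxd with a number from 1 to 13 were taken, out of 21938 protein-coding genes on chromosomes 1 to 19, X and Y. There were 11 genes in HoxA, 10 in HoxB, 9 in HoxC and 9 in HoxD. Open chromatin was mapped with ATAC-seq, which reads where Tn5 transposase can insert adaptors.

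G1E-ER4 is a Gata1-deficient mouse erythroid line that expresses GATA1, the erythroid master transcription factor, as a fusion with an estrogen receptor domain, which becomes active when β-estradiol is added. All groups share this genotype and growth with stem cell factor and erythropoietin. The groups were untreated cells (0 h) and cells in β-estradiol at 1e-07 M for 2, 6, 12 or 24 h, with 2 libraries each and 10 libraries in all. About 50000 cells entered each library. All libraries come from 1 line. The study calls its ATAC-seq course independent experiments, 2 in number, while the sample descriptions do not say how replicates were grown. In bulk cells, a change in the share of cells with an open site and a change in how open it is cannot be told apart.

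Each library has its own list of peak summits, the base of highest signal in a peak. The lists held from 10698 peaks (24 h replicate 2) to 19859 peaks (6 h replicate 2), and sequencing depth is unknown. A place without a summit is therefore a place where no peak was called, and does not show closed chromatin. The score of a peak is −log10 of its q-value in its own library, so scores are given with their percentile rank in their own list. Of the erythroid markers, 9 of 10 had a listed promoter in at least 1 library and 5 in all 10. The shares over all protein-coding genes were 45.6% and 26.9%. The exception was Alas2, the erythroid heme synthesis enzyme. None of 4 lymphoid markers was listed. Of 5 mast cell markers Kit was listed in 9 libraries, of 5 myeloid markers Spi1 in 9, of 4 megakaryocyte markers Itga2b in 10, and of 3 stromal markers Col1a1 in 8 and Pdgfra in 3. The remaining markers of these lists were listed in no library.

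Hox genes encode homeodomain transcription factors that give cells positional identity along the body axis. They lie in 4 clusters in which gene order mirrors the order of expression, from the anterior groups with low numbers to the posterior groups with high numbers. Where they are silent, clusters are commonly covered by Polycomb repressive complexes, and Trithorax and MLL proteins keep them active. In blood, Hox genes, and those of the HoxA and HoxB clusters in particular, are known for activity in stem and progenitor cells and for lower activity as cells mature.

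The 4 sequences below stand for accessible sites on which the results turn. Each is 201 bases of the plus strand of GRCm38 (mm10), from the RefSeq copy of that build, centred on the site. Capitals mark matches to the searched patterns. The single site of HoxA lay 166 bp from the start of Hoxa7, in an exon of that gene at chr6:52221588-52221788, and held no match.
Hoxa7 site: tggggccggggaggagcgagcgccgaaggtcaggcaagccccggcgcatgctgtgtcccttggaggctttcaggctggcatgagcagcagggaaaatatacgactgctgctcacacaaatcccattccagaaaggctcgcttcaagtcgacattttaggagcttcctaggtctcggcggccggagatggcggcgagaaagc
The most often listed region of the 4 windows (chr15:102998635-103000120) lay in introns of Hoxc5 and Hoxc6. The 201 bases at its centre (chr15:102999243-102999443) held a GC box in capitals. Some libraries listed for this region had summits only outside these 201 bases.
Hoxc6 site: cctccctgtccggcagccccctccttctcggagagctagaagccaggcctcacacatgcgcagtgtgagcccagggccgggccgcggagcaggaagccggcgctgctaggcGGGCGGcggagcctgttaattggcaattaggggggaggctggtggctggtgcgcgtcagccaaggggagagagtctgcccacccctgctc
The highest-ranking site of the 4 windows lay between genes at chr15:103067824-103068024, 33.5 kb from the nearest Hoxc4 start. Its capitals are 3 GATA matches, here read on the other strand. The summits of 6 h replicate 1 at this site lay outside these bases.
Hoxc4 distal site: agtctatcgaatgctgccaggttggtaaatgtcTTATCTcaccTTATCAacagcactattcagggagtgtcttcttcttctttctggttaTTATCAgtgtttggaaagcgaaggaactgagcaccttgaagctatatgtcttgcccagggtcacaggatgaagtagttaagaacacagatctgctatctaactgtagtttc
The most often listed site of HoxD lay in an exon of the antisense RNA gene Hoxd3os1 at chr2:74715839-74716039. Its summits in 2 h replicate 1 and 24 h replicate 1 lay outside these bases. The capitals are a match to the CTCF pattern and a GC box.
Hoxd3os1 site: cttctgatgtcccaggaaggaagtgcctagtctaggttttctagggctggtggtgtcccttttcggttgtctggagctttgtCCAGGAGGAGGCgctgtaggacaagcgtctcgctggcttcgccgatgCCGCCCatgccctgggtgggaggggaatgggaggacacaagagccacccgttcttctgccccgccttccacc

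Whether Hox promoters were accessible at any time was asked first. A promoter was called listed when a summit lay within 1 kb of an annotated transcript start of the gene. At 0 h, 1 of 39 Hox genes was listed in each library. The 2 h libraries had 1 (replicate 1) and 0 (replicate 2), and those of 6 h had 2 and 4. The 12 h libraries had 2 and 3, and both of 24 h had 2. No library had more than 10.3% of Hox promoters listed, whereas 35.7% to 42.9% of all protein-coding promoters were listed per library, so the shares of Hox genes and of all genes did not overlap. The mean was 1.8 ± 1.14 genes (SD, n = 10). It was 0.8 with lists of equal size, with scores of at least 5 or with the basic transcripts of the annotation, 0.9 within 500 bp or with starts of protein-coding transcripts alone, and 2.4 within 2 kb.

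**Figure D1:**
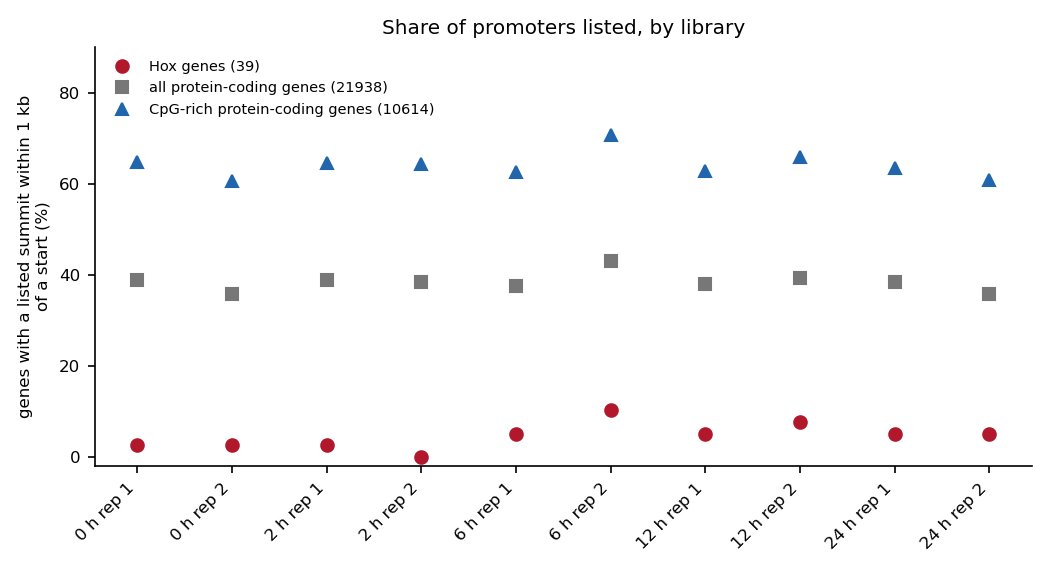
Percentage of promoters with a summit within 1 kb of a transcript start (y axis) in each of the 10 libraries (x axis), for the Hox genes, all protein-coding genes and those with a CpG-rich start. The Hox shares run from 0% to 10.3% and lie below both other shares in each library.

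In total 6 of 39 Hox genes were listed in at least 1 library, against 45.6% of all protein-coding genes. None was listed in all 10 libraries, against 26.9%. The other 33 were listed in none. They comprise all 10 HoxB genes, all 9 HoxD genes, 10 of 11 HoxA genes and Hoxc9, Hoxc11, Hoxc12 and Hoxc13. By position in the cluster, 0 of 8 genes of groups 1 to 3, 5 of 15 of groups 4 to 8 and 1 of 16 of groups 9 to 13 were listed.

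Hox starts were not poorer in CpG than other starts. CpG content was read once per gene, over 300 bases, 250 before a start and 50 from it on. A start was called CpG-rich when these bases had at least 55% G and C and a CpG count of at least 0.65 of that expected from base content. This held for 23 of 39 Hox genes (59.0%) and for 48.4% of all genes. Of these 23, 3 were listed in at least 1 library (Hoxa7, Hoxc8 and Hoxc10), against 73.1% of the 10614 CpG-rich genes. Of all CpG-rich genes 46.9% were listed in all 10 libraries. HoxA had the most CpG-rich starts, 9 of 11, and 1 listed gene. HoxC had the fewest, 3 of 9, and 5 listed genes. The start read for CpG need not be the start that was listed or lie at the summit. The 201 bases at the Hoxc6 site had 69.2% G and C, and the 300 bases read for Hoxc6 had 49.7%. Hoxc5 was listed only through summits also counted for Hoxc10.

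Hoxc6 and Hoxc5 belong to the central groups and share a long transcription unit with Hoxc4. Hoxc6 was the most often listed gene, in 6 libraries (0 h replicate 2, 2 h replicate 1, both 6 h libraries, 12 h replicate 2 and 24 h replicate 1). Its summits lay near starts of 2 processed transcripts that code for no protein, and no summit lay within 1 kb of the start of its protein-coding transcript. The 1 kb limit cut through this site, with a summit at 978 bp counted and others at 1086 to 1128 bp not counted on their own. The summit at 978 bp was in 0 h replicate 2. Those not counted lay at 1086, 1100, 1105, 1113, 1124 and 1128 bp, the last in 0 h replicate 1. Within 2 kb, Hoxc6 was listed in 9 libraries.

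Hoxc4 was listed in 4 libraries (0 h replicate 1, 6 h replicate 2, 12 h replicate 1 and 24 h replicate 1), with scores of 2.96, 5.11, 3.62 and 1.33. The listed start was that of a coding transcript 15.5 kb downstream of the gene's 5′ end, and the upstream start was listed in no library. These summits ranked at the 5.91, 30.1, 18.2 and 0.161 percentile of their lists, so none was above the median peak.

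Hoxc10, a posterior gene, was listed in 3 libraries, replicate 2 of 6, 12 and 24 h, with scores of 8.87, 3.87 and 8.29. These 3 summits ranked at the 56.5, 15.5 and 59.5 percentile. The same 3 summits account for Hoxc5, since a processed transcript of Hoxc5 starts near Hoxc10, and the coding start of Hoxc5, 46.4 kb further on, was listed in none. No replicate 1 library had this site.

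Hoxc8 was listed in 12 h replicate 1 alone (score 2.89, percentile 8.12) and Hoxa7, a HoxA gene known from blood progenitors, in 6 h replicate 1 alone (score 3.71, percentile 19.1). With starts of protein-coding transcripts alone, a choice made after seeing the data, 4 genes were listed in any library (Hoxa7, Hoxc4, Hoxc8 and Hoxc10). With the basic transcripts of the annotation there were 3, without Hoxa7, and 44.1% of all genes were then listed.

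The study follows the same cells over time, so each time point was set against 0 h. No Hox promoter was gained, meaning listed in both libraries of a time point and in neither at 0 h, and none was lost, meaning the opposite. The shares over all protein-coding promoters were, at 2 h, 0.666% gained and 0.36% lost. They were 1.1% and 0.0456% at 6 h. The 12 h shares were 0.77% and 0.315%, and the 24 h shares 0.47% and 0.565%. Leaving out a library relaxes this rule. It gave 2 gained Hox genes without 6 h replicate 1, 12 h replicate 1 or 24 h replicate 1, 1 without 0 h replicate 2, 6 h replicate 2 or 12 h replicate 2, and 1 lost at 2 h without 0 h replicate 2.

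Next, summits were counted across each cluster, from its lowest to its highest gene base with 50 kb on each side. HoxA spans 105.3 kb (chr6:52155590-52260880), HoxB 173.9 kb (chr11:96194316-96368256), HoxC 115.8 kb (chr15:102921103-103036852) and HoxD 96.8 kb (chr2:74668310-74765142). HoxB is longer because Hoxb13 lies apart from its other genes. The 10 lists together held 60 summits in these 4 windows, 41 of them in the gene spans and 16 within 1 kb of a Hox start. Their median percentile was 24.2, and 16 of 60 ranked above the median of their own list.

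**Figure D2:**
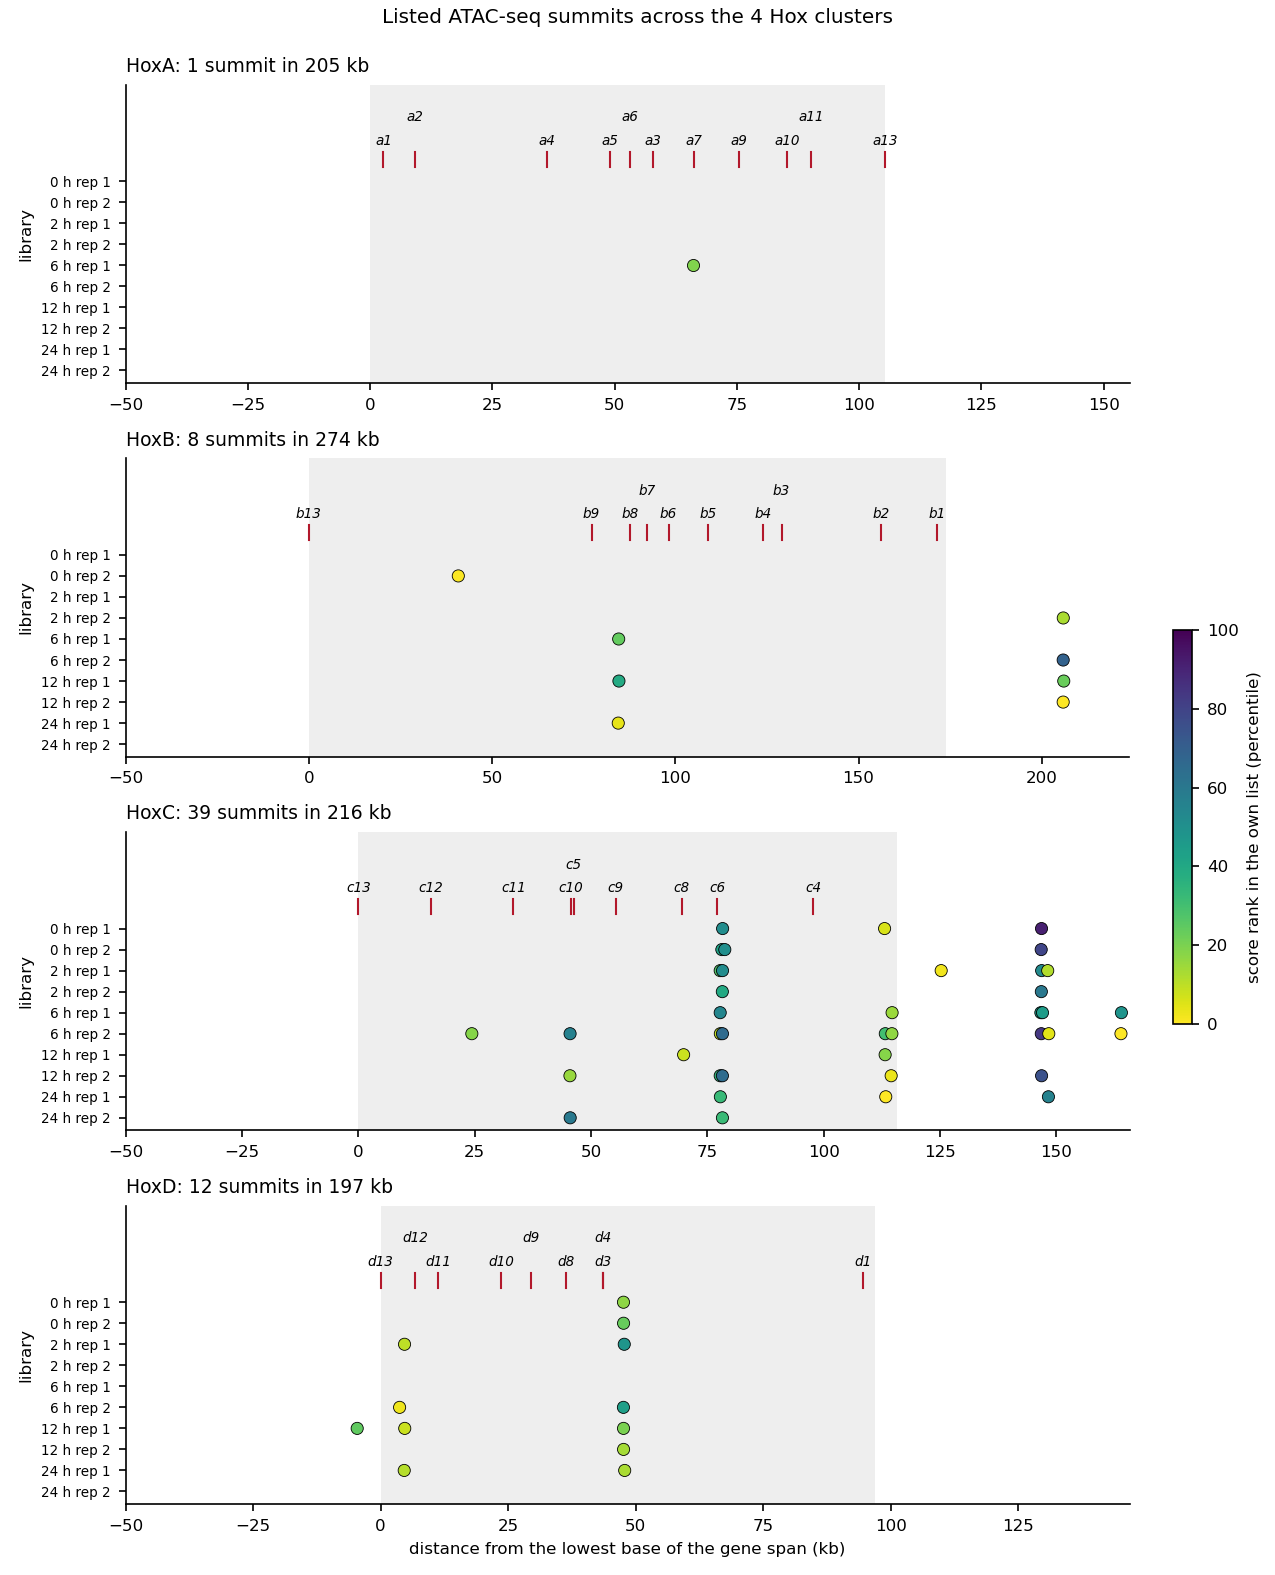
Summits of each library (rows) in each cluster window, by distance in kb from the lowest base of the gene span (x axis); grey marks the gene span, red ticks the 5′ ends of the genes, and colour the percentile of the score in its own list. HoxC holds 39 of the 60 summits, stacked at a few sites, and HoxA holds 1.

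HoxC was the exception among the clusters. In the order of replicates 1 and 2, it had 3 and 3 summits (0 h), 5 and 2 (2 h), 5 and 9 (6 h), 2 and 5 (12 h), and 3 and 2 (24 h), so no library was without a summit. HoxD had 1 and 1 (0 h), 2 and 0 (2 h), 0 and 2 (6 h), 3 and 1 (12 h), and 2 and 0 (24 h). HoxB had 0 and 1 (0 h), 0 and 1 (2 h), 1 and 1 (6 h), 2 and 1 (12 h), and 1 and 0 (24 h). HoxD was at 0 in 3 libraries, as was HoxB. HoxA had none in 9 libraries and 1 in 6 h replicate 1. The sums over all libraries were 39, 12, 8 and 1 summits.

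Per 100 kb of window, HoxC had 1.81 ± 1.01 summits (SD, n = 10), HoxD 0.610 ± 0.525, HoxB 0.292 ± 0.231 and HoxA 0.0487 ± 0.154. The density over chromosomes 1 to 19, X and Y was 0.539 ± 0.0919. HoxC was above its library's genome density in 10 of 10 libraries, by 1.27 summits per 100 kb (adjusted permutation p = 0.00391). HoxA was below it in 10 of 10, by a mean difference of -0.490 (adjusted permutation p = 0.00391), and HoxB in 9 of 10, by -0.247 (adjusted permutation p = 0.0156). These are exact sign-flip permutation tests over libraries, two-sided, with Benjamini-Hochberg adjustment over 4 clusters. HoxD was higher in 6 of 10 libraries and lower in 4 (difference 0.0705 ± 0.476, adjusted permutation p = 0.684). The tests cover how repeatably 1 locus differs from the genome mean over libraries of 1 line, not how unusual that locus is.

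Summits were unevenly spread over the genome. Cut into tiles of the length of each window, unassembled gaps included, the genome had a median of 0 summits a tile over the 10 lists for HoxA, HoxC and HoxD and 1 for HoxB. The single summit of HoxA was no fewer than in 59.2% of 13266 tiles, and the 8 of HoxB no fewer than in 62.0% of 9938. Tiles with at least the 39 summits of HoxC made up 10.8% of 12623, and those with at least the 12 of HoxD 27.7% of 13836. HoxA and HoxB thus lay below the mean but not below the median tile. These shares were chosen after seeing the data and carry no test.

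The HoxC and HoxA results held under every alternative run. For HoxA this could hardly be otherwise, since a window with 0 summits lies below the genome density in any list. HoxA had 0 in 9 of 10 libraries, and 53.0% of tiles of its window's length held no summit in any list. For HoxB the call ended with flanks of 100 kb (difference -0.111, adjusted permutation p = 0.271). HoxD fell below the genome with lists cut to equal size (-0.291, adjusted permutation p = 0.00781) and rose above it with flanks of 100 kb (0.943, adjusted permutation p = 0.00521). Without 12 h replicate 1 its difference was -0.0281.

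**Figure D3:**
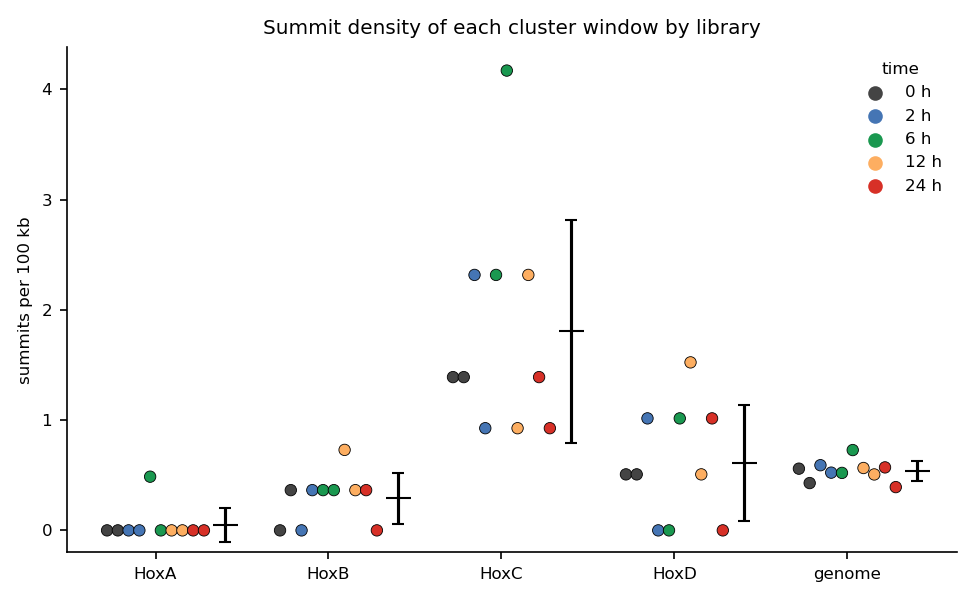
Summits per 100 kb (y axis) in the window of each cluster and over the genome (x axis); points are the 10 libraries coloured by time, and bars give the mean and SD. HoxC lies above the genome density in each library, with 6 h replicate 2 highest at 4.17, and HoxA lies at 0 in 9 of 10.

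Compared with each other, HoxC had more summits per 100 kb than HoxA in 10 of 10 libraries (difference 1.76 ± 0.996, adjusted permutation p = 0.00586) and than HoxB in 10 of 10 (difference 1.52 ± 1.04, adjusted permutation p = 0.00586). HoxD was below HoxC in 9 of 10 (difference -1.20 ± 1.04, adjusted permutation p = 0.0117) and above HoxA in 7 of 10 (difference 0.561 ± 0.604, adjusted permutation p = 0.0234). HoxB was above HoxA in 6 of 10 (difference 0.243 ± 0.263, adjusted permutation p = 0.0375), and HoxD minus HoxB did not pass (0.318 ± 0.479, adjusted permutation p = 0.0703). The test was the exact sign-flip permutation test, adjusted over 6 pairs.

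Some of these calls rest on few libraries or on the window. HoxB minus HoxA no longer passed without 0 h replicate 2, 12 h replicate 1, 12 h replicate 2, 24 h replicate 1 or 6 h replicate 2 (adjusted permutation p = 0.075 each) or without 2 h replicate 2 (adjusted permutation p = 0.0625). HoxD minus HoxB passed without 2 h replicate 2 (0.393, adjusted permutation p = 0.0469) or without 6 h replicate 1 (0.393, adjusted permutation p = 0.0391). HoxB minus HoxA (0.0730) and HoxD minus HoxA (0.102) also no longer passed with equal lists (adjusted permutation p = 0.6 each). With flanks of 100 kb HoxD minus HoxC was 0.0255 (adjusted permutation p = 0.928). The added sequence of HoxD held 32 summits over the 10 lists. Among them were summits near the start of the neighbouring gene Mtx2, 60.7 kb from the span and listed in 8 libraries. Others recurred farther from the span on both sides.

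HoxA lay in a long stretch without summits. Over all 10 lists, the nearest summits outside it were 130.6 kb before the span, near Skap2, which was listed in 10 libraries, and 316.6 kb beyond it, past Evx1, which was listed in none. These 552.5 kb held the 1 summit at Hoxa7 and no other. How common stretches of this length are over the genome was not counted. HoxD also had a mean of 0 summits from 100 to 500 kb before its span.

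To see whether a density belonged to a cluster or to its surroundings, the gene spans were set against the sequence 50 to 500 kb away, a comparison chosen after seeing the data. HoxA had 0.0950 ± 0.300 summits per 100 kb (SD, n = 10) inside and 0.433 ± 0.122 outside (difference -0.338, lower in 9 of 10 libraries, adjusted permutation p = 0.0391, exact sign-flip permutation test). HoxB had 0.230 ± 0.297 inside and 2.76 ± 0.482 outside (difference -2.53, lower in 10 of 10, adjusted permutation p = 0.00781). HoxC had 2.16 ± 1.24 inside and 2.37 ± 0.442 outside (difference -0.207, adjusted permutation p = 0.539), and HoxD 1.14 ± 0.904 inside and 0.522 ± 0.158 outside (difference 0.614, adjusted permutation p = 0.0677). HoxB thus showed the widest gap to its surroundings, and for HoxC and HoxD no difference was shown. Outside HoxA the mean was 0 from 50 to 100 kb on both sides. It was 2.4 summits per 100 kb from 100 to 150 kb before the span. Beyond the span it was 1.1 from 300 to 400 kb and from 400 to 500 kb. As with the genome, the tests cover how repeatably 1 locus differs over libraries of 1 line, not how unusual the locus is.

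**Figure D4:**
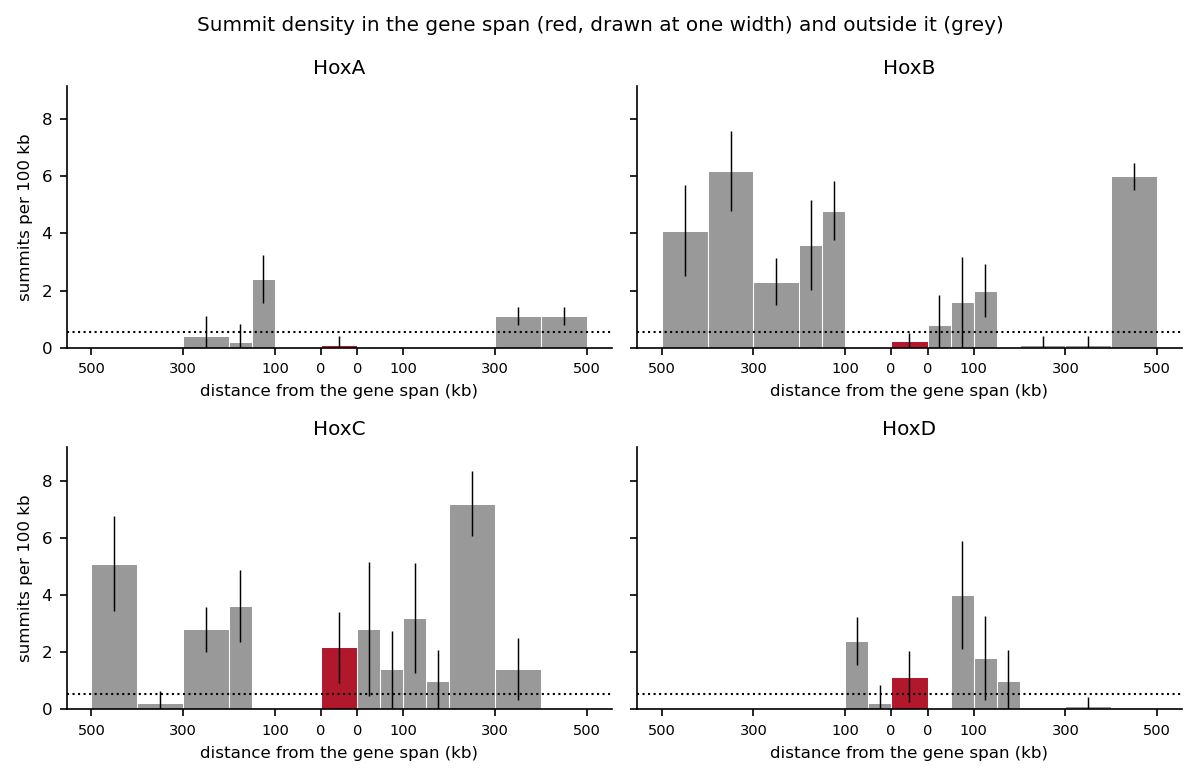
Mean summits per 100 kb (y axis; error bars, SD over 10 libraries) inside each gene span (red, drawn at one width) and in bins outside it by distance in kb (x axis); the dotted line is the genome mean of 0.539. HoxB stands in summit-rich surroundings with 0.230 inside, and HoxC has 2.16 inside.

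Counts were then compared over time. The mean of HoxC was 3 summits before treatment, then 3.5 (2 h), 7 (6 h), 3.5 (12 h) and 2.5 (24 h). The difference of 4 at 6 h had the smallest exact permutation p that 2 against 2 libraries can give, 0.333, so no time point could pass. Over 4 clusters and 4 times, 16 exact permutation tests gave p from 0.333 to 1 and an adjusted p of 1 each, with 0 unadjusted p under 0.05. HoxC at 6 h rested in part on replicate 2, which had 9 summits against 5 in replicate 1 and also the largest list. With lists of equal size the difference at 6 h was 1, and without 6 h replicate 2 it was 2.

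No trend with the hours of treatment was detected in any cluster. Neither r nor rho over hours tests for a rise in mid-course that falls again. Over 10 libraries, Pearson's r was -0.108 for HoxA, 0.0695 for HoxB, -0.230 for HoxC and 0.0756 for HoxD, and Spearman's rho was 0, 0.225, -0.153 and 0.128 (adjusted permutation p = 1 for each r and 0.999 or 1 for each rho). Without both 24 h libraries, r was 0.0825, 0.683, 0.151 and 0.394 (permutation p = 1, 0.0818, 0.760 and 0.365). The 6 differences between clusters had r from -0.239 to 0.263 with hours (adjusted permutation p = 0.891 each). Libraries of replicate 1 and replicate 2, the only other grouping in the titles, differed by -0.8 to 0.6 summits in the 4 clusters (exact permutation p = 0.381 to 1, adjusted p = 1). That test did not pair libraries by time point, so differences over time add to its spread.

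List size moved with these counts. The summits in the 4 windows were 4 and 5 (0 h), 7 and 3 (2 h), 7 and 12 (6 h), 7 and 7 (12 h), and 6 and 2 (24 h). The libraries with the largest and the smallest list had 12 and 2. Pearson's r between list size and summits was 0.810 (permutation p = 0.00763, Spearman's rho = 0.588, permutation p = 0.0777), and 0.236 without the 2 libraries farthest from the median size (permutation p = 0.583), so the relation rests on those libraries.

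Individual sites were then followed. Summits extended by 250 bp on each side and merged over the lists gave 18 regions in the 4 windows, 10 in HoxC, 4 in HoxD, 3 in HoxB and 1 in HoxA. Few recurred. Of the 18, 1 was listed in at least 8 libraries, against 32.2% of all 28981 regions, and 7 in 1 library, against 28.9%.

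The Hoxc6 site (chr15:102998635-103000120), whose central 201 bases are given above, was listed in 9 libraries and missing in 12 h replicate 1. It merges summits at different places. In 6 h replicate 1 and 24 h replicate 1 the only summits lay at 102998885 and 102998920, outside those bases. In 0 h replicate 2 they lay at 102999235 and 102999870, also outside. The highest score per library was 6.62 and 6.80 (0 h), 6.22 and 5.88 (2 h), 6.12 and 11.1 (6 h), 10.1 (12 h replicate 2), and 4.48 and 5.21 (24 h). The ranks ran from the 32.2 to the 65.5 percentile, lowest in both 24 h libraries.

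The Hoxc4 distal site (chr15:103067554-103068406) was the one site of the clusters called lost. It had scores of 15.1 and 11.9 (0 h), 6.30 and 8.38 (2 h), 5.43 and 18.8 (6 h) and 12.7 (12 h replicate 2), and was missing in 12 h replicate 1 and both 24 h libraries. At 0 h it ranked at the 91.3 and 79.6 percentile, the former being the highest rank of any summit in the 4 windows. At 24 h, 1 of the 18 regions was thus lost, against 3.51% of all regions. The 24 h lists held 15573 and 10698 peaks, the former more than either 0 h list. A region centred 1504 bp away (chr15:103069025-103069754) had a summit in 24 h replicate 1, with a score of 6.17 at the 55.5 percentile, and in 2 h replicate 1 (3.35) and 6 h replicate 2 (2.73). Peak widths are not in the lists, so the loss is of summits in this region. The count of lost regions stayed at 1 with lists of equal size, with scores of at least 2 or 5 and with merging windows of 100 or 500 bp, and was 2 without 0 h replicate 1 or without 24 h replicate 1.

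Gained regions were few in number, on a small base of 18 regions. At 6 h, 2 of the 18 were gained, both in HoxC, a larger share than the 4.08% of all regions. The first (chr15:103035379-103036079, an exon of Hoxc4) had scores of 3.46 and 3.95 at 6 h and 2.52 in 12 h replicate 2, at the 14.9, 16.7 and 3.11 percentile. The second (chr15:103084768-103085364, between genes) had 5.62 and 1.95 at 6 h, at the 48.1 and 0.355 percentile, and was in no other library. At 12 h, 1 of the 18 was gained, also a larger share than the 2.47% of all regions. It was a HoxB region between genes, 33.9 kb from the Hoxb1 start. Its scores were 3.89 and 1.98 at 12 h, 3.65 in 2 h replicate 2 and 12.2 in 6 h replicate 2. Its ranks were the 23.0, 0.380, 12.8 and 69.1 percentile, so at 6 h, before it counted as gained, it stood above the median of that list.

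Those calls depended on single libraries and on the score. With scores of at least 5 or lists of equal size, no region was gained at 6 or 12 h. Regions gained at 6 h numbered 7 without 6 h replicate 1 and 4 without 6 h replicate 2, and those gained at 12 h 3 without 12 h replicate 1 and 5 without 12 h replicate 2. No region was gained or lost at 2 h (2.67% and 1.15% of all regions), lost at 6 h (0.759%) or 12 h (1.88%), or gained at 24 h (1.71%). Up to 3 were gained where a library was left out, at 2 h without 2 h replicate 2 and at 24 h without 24 h replicate 2, and up to 2 were lost at 12 h without 12 h replicate 2.

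**Figure D5:**
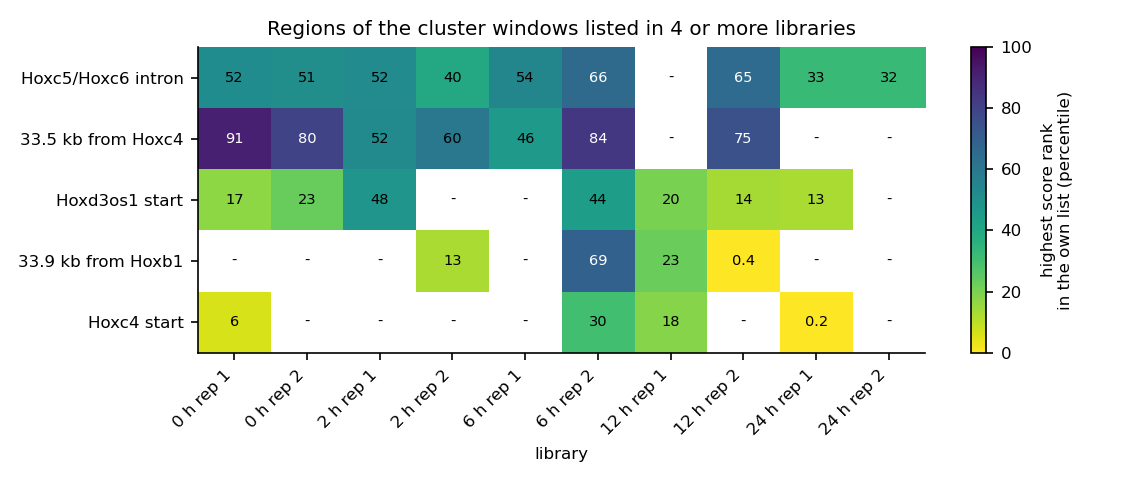
Percentile of the highest score in its own list (colour and printed value) for the 5 regions of the cluster windows listed in at least 4 libraries (rows) in each library (columns); a dash marks no summit. The Hoxc4 distal site has a value in each 0 h library and a dash in each 24 h library.

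The HoxD cluster had no listed Hox promoter, and its most frequent site (chr2:74715662-74716409) lay at the start of Hoxd3os1, a non-coding gene antisense to Hoxd3. It was listed in 7 libraries, with scores of 3.85 and 4.46 (0 h), 5.88 (2 h replicate 1), 6.73 (6 h replicate 2), 3.75 and 3.71 (12 h) and 3.28 (24 h replicate 1). No summit of HoxD ranked above the median of its list, and the highest stood at the 47.8 percentile. Of 56 non-coding genes with a start in the 4 windows, Hoxd3os1 and Gm27337, listed in 1 library, were the 2 with a listed start, against 7.32% of all non-coding genes listed in at least 1 library. The 7 microRNA genes of the clusters, Mir10a, Mir10b, Mir196a-1, Mir196a-2, Mir196b, Mir615 and Gm44463, were listed in none, against 7.99% of all microRNA genes listed in at least 1.

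Of 5 regions listed in exactly 3 libraries, 3 lay in libraries of 1 replicate number, against 21.7% of all regions listed in 3 libraries, and 2 in libraries of both. Besides the Hoxc10 site in 3 replicate 2 libraries, a HoxB site 3.05 kb from the Hoxb8 start (chr11:96278491-96279177) and a HoxD site 2.02 kb from the Hoxd12 start (chr2:74672681-74673281) were each listed in 3 libraries, all of replicate 1. These 3 sites were chosen after their values were seen.

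What the 18 regions share was looked for in their sequence. Patterns were searched on both strands of the 201 bases at the centre of each region, with the share over all 28981 regions beside. The motif of GATA factors (AGATAA, or the same with T as its first base) was in 5 of 18 (27.8%, all regions 28.0%). AP-1 (TGANTCA) was in 3 (16.7%, all regions 6.67%), the GC box of SP and KLF factors (GGGCGG) in 4 (22.2%, all regions 25.1%), and ETS (CCGGAA) and CTCF (CCA and AG, each followed by any pair of bases, then GGC) in 1 each (5.56%, all regions 10.1% for either). The pattern of HOX-PBX dimers (TGATTNAT) was in 0 of 18, against 1.41% of all regions. Of the 3 HoxC regions gained or lost, the Hoxc4 distal site had 3 GATA matches, the second region gained at 6 h 3 and the first none. Median G and C content was 57.5% in the Hox regions and 52.2% in all.

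Genes that act with or on Hox genes were given from fixed lists. For comparison, 45.6% of all protein-coding genes were listed in at least 1 library and 26.9% in all 10. Among CpG-rich genes these shares were 73.1% and 46.9%. Of 8 TALE cofactors, homeodomain partners of HOX proteins, Pbx3, Pbx4 and Pknox1 were listed in all 10 libraries and Pbx2 in 2, and Meis1, Meis2, Meis3 and Pknox2 in none. The 8 genes of the Cdx, ParaHox and Evx families, the nearest relatives and regulators of the clusters, were listed in none (Cdx1, Cdx2, Cdx4, Gsx1, Gsx2, Pdx1, Evx1 and Evx2).

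Of 21 Polycomb genes, 8 were listed in all 10 libraries, 10 in some, and Pcgf2, Cbx2 and Cbx8 in none. Ezh1, a histone methyltransferase of Polycomb complex PRC2, was gained at 6 h and Cbx6 at 6 and 12 h. Of all protein-coding promoters 1.1% were gained at 6 h and 0.77% at 12 h. Of 15 Trithorax and MLL genes, 9 were listed in all and 5 in some, with Kdm6b, a demethylase of the Polycomb mark, in none. Aff4 was lost at 24 h, as were 0.565% of all protein-coding promoters. Of 9 genes of CTCF and cohesin, which shape chromatin loops, 6 were listed in all and 3 in some. The medians were 8 of 10 libraries for Polycomb genes and 10 for the Trithorax and CTCF lists, beside 0 for the Hox genes and 0 for all protein-coding genes.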

How the data were processed

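Per the labels and the methods of the study, the authors aligned ATAC-seq reads to mm10, kept uniquely placed reads and ran MACS, with no fragment model, to call peaks library by library. The submitters' processing notes name Bowtie 1.0.0, Picard and MACS2, whereas the methods name Bowtie2, so the aligner is unsettled. Each deposited list gives 1 bp summits and a score, −log10 of the q-value (lowest 1.30). No read shift is stated, widths and reads are not in the lists, and depth is unknown.

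Groups and replicate numbers came from the titles. Starts were all annotated transcripts of protein-coding genes (93513 starts). Summits within 1 kb of a start, and in cluster spans with 50 kb flanks, were counted in Python 3.11.15 with numpy 2.4.6, pandas 2.3.3 and scipy 1.17.1, and sequence was read with pysam 0.24.0. Tests were exact permutations, with all 1024 sign flips for paired values and 100000 resamples for correlations, adjusted by Benjamini-Hochberg at 0.05. Functions were tested on simulated data. Genes listed in any library and regions listed in at least 8 libraries, gained or lost were named. Members and lists were chosen with earlier results of these data known. Alternatives were lists of equal size, score minimums of 2 and 5, start distances of 500 bp and 2 kb, flanks of 0 and 100 kb, merging windows of 100 and 500 bp, replicate blocks and leaving out each library. Some genes and sequences are not reported here.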

Additional observations from a re-analysis of the deposited data

How the results depend on the processing

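Under 22 other settings, 47 results gave 737 values. Of these, 652 kept their direction and their side of the threshold or, for counts, stayed within 1.5 times the count or, for the mean number of Hox genes listed, moved by less than 1 SD. A value of 0 counted as a kept direction. Some values could not change, since leaving out a library of another time point leaves a difference against 0 h as it was. HoxC above the genome and above HoxA and HoxB, and HoxA below the genome, kept their calls in all alternatives run. The HoxA call could hardly change, with 0 summits in 9 of 10 libraries. Tests against 0 h could pass in no setting, since 2 against 2 libraries cannot give a p below 0.333.

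With lists of equal size, HoxB minus HoxA (0.0730) and HoxD minus HoxA (0.102) no longer passed, HoxD minus the genome was -0.291, 3 Hox genes were listed in any library, 0 regions were gained at 6 or 12 h, r with hours was -0.452 for HoxD, -0.452 for HoxD minus HoxA and -0.336 for HoxD minus HoxB, and HoxC against 0 h was -0.5 at 2 h and -1 at 12 h. With scores of at least 5, the same values were 0.0365, 0.102 and -0.255, 0 gained regions, r of -0.278, -0.278 and -0.291, and -0.5 and -1, with r of -0.108 for HoxB and for HoxB minus HoxA. With scores of at least 2, HoxB minus HoxA no longer passed (0.207), and 1 region was gained at 6 h and 0 at 12 h. With basic transcripts 3 Hox genes were listed. The cause was not tested.

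With no flank, HoxB minus HoxA (0.135) no longer passed, HoxD minus HoxB (0.906) did, r was 0.0170 for HoxC, 0.0409 for HoxC minus HoxA and -0.00812 for HoxD minus HoxB, and HoxC at 2 h was -0.5. With flanks of 100 kb, HoxD minus HoxB (1.05) and HoxD minus the genome (0.943) passed, HoxB minus the genome (-0.111) did not, HoxD minus HoxC was 0.0255, and r was -0.0325 for HoxD, -0.0147 for HoxD minus HoxA and -0.146 for HoxD minus HoxB.

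Leaving out 1 library gave ranges of 0.189 to 0.284 for HoxB minus HoxA, 0.240 to 0.393 for HoxD minus HoxB, and -0.0281 to 0.137 for HoxD minus the genome. HoxC by replicate number ran from -0.6 to 1.15, and HoxC against 0 h from -1 to 2 at both 2 and 12 h. The r with hours ran from -0.0967 to 0.455 for HoxB, -0.108 to 0.426 for HoxD, -0.0795 to 0.372 for HoxD minus HoxA and -0.120 to 0.236 for HoxD minus HoxB. Promoters gained ran from 0 to 2 at 6, 12 and 24 h, and those lost at 2 h from 0 to 1. Regions gained ran from 0 to 3 at 2 and 24 h, 2 to 7 at 6 h and 1 to 5 at 12 h, and those lost from 0 to 1 at 2 and 6 h, 0 to 2 at 12 h and 1 to 2 at 24 h. Leaving out a library relaxes the rule for gained and lost.

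Same-numbered libraries deviated together weakly, with r from 0.0209 to 0.0908 (median 0.0592) and 0 of 10 pairs of time points over 0.1. Every r was positive, so a small shared deviation by replicate number is not excluded. Scores did shift with the replicate number, the median being higher in replicate 2 at each time point. In replicates 2 and 1 it was 6.73 and 6.48 (0 h), 6.95 and 6.08 (2 h), and 7.68 and 5.77 (6 h). At 12 h it was 7.36 and 5.74, and at 24 h 6.98 and 5.68. The replicate 2 list was the shorter at each time point but 6 h. The cause was not tested. The replicate number served as a block in an alternative only. With the replicate block, no call changed and 0 time tests passed (lowest exact permutation p = 0.5, also the smallest possible).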
